A study of Mus musculus with 24 samples.

Results

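The 283 genes described here carry a mouse symbol of Zfp followed by a number and reached a mean of at least 2 counts per 1000000 counts of the library (CPM) over 24 RNA-seq libraries. The deposited table holds 55357 genes, of which 417 have such a symbol. The 3 genes of the Zfp36 family, 10 pseudogenes and 4 antisense genes were set aside, and 117 of the 400 genes left were below 2 CPM, 17 of them without a count. Just inside the limit were Zfp174 at 2.02 CPM and Zfp993 at 2.03 CPM, and just outside it Zfp108 at 1.99 CPM and Zfp78 at 1.75 CPM. The libraries come from bone marrow-derived macrophages, which are marrow cells of C57BL/6J wild-type mice aged 8 to 12 weeks grown in medium with M-CSF from L929 cells. At 4 h and at 24 h the groups are dexamethasone plus LPS, LPS, dexamethasone and Control, with 3 libraries each, and the labels do not say whether these come from separate mice or cultures, so p-values measure only the spread between libraries. Dexamethasone, a synthetic glucocorticoid, was used at 100 nM, and LPS, the bacterial cell wall component sensed by Toll-like receptor 4, at 100 ng in a volume that the labels do not state. The study asks how the action of a glucocorticoid on LPS-treated macrophages depends on time.

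Zfp proteins of the C2H2 type bind DNA through a row of fingers, each of which holds a zinc ion between cysteines and histidines. Many of them begin with a KRAB box, a short domain that recruits Trim28, and Trim28 in turn gathers histone methyltransferases and heterochromatin proteins onto the bound DNA. KRAB zinc finger proteins are known for silencing retrotransposons and for protecting imprinted regions, and their genes lie in tandem clusters that grew by duplication. The other Zfp genes are a mixed set of activators, repressors, RNA-binding proteins and ubiquitin ligases that share little beyond the finger.

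The gene models fit the label for most members. Of the 283 genes, 280 had a coding model, and 259 of these had at least 3 C2H2 fingers in the translated sequence. The median was 10 fingers, the highest number was 36, and 4 proteins had none that matched the search. A KRAB box was found in 168 proteins and not in 112. The KRAB genes had a median of 12 fingers and a median level of 7.94 CPM, against 7 fingers and 21.7 CPM in the genes without the box. Members lie on 20 chromosomes, with 70 on chromosome 7, 41 on chromosome 17 and 29 on chromosome 13. Neighbours less than 1000000 bases apart form 16 clusters of at least 5 members, which together hold 147 genes.

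The promoters of members are shown for 4 genes that the results below turn on. A promoter window here runs from 250 bases before to 50 bases after an annotated start, in RefSeq for GRCm38.p6, and 238 members matched 287 such windows. Zfp658 and Zfp719 are neighbours on chromosome 7, and both were higher with LPS and with dexamethasone, as given below. Their windows lie at chr7:43562120-43562419 and chr7:43579336-43579635, both on the plus strand. The capitals mark the longest gapless stretch that the windows share, 37 letters of which 30 are identical. The stretch lies on opposite sides of the annotated starts, before the start in Zfp658 and after it in Zfp719.
Zfp658: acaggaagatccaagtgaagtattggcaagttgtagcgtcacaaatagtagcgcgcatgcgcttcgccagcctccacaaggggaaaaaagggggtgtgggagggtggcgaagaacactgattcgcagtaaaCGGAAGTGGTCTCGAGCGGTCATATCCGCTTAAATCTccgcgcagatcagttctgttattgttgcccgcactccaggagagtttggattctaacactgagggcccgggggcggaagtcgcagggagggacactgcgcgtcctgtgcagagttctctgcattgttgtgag
Zfp719: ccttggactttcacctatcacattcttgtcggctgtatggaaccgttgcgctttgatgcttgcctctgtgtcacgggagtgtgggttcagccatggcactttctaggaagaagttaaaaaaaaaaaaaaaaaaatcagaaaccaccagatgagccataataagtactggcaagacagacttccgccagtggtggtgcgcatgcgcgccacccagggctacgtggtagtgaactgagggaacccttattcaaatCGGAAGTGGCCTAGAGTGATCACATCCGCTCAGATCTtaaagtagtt
These were the only 2 of 32851 promoter windows in the table with the 30 shared letters at these spacings on either strand. That search was made after the sequences had been compared and is a description only.

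Zfp811 on chromosome 17, at chr17:32809882-32810181 on the minus strand, had the largest rise with LPS at 4 h, and Zfp281 on chromosome 1, at chr1:136624651-136624950 on the plus strand, was among the largest rises too. Here the capitals mark CG dinucleotides, of which the Zfp811 window has 5 and the Zfp281 window 27.
Zfp811: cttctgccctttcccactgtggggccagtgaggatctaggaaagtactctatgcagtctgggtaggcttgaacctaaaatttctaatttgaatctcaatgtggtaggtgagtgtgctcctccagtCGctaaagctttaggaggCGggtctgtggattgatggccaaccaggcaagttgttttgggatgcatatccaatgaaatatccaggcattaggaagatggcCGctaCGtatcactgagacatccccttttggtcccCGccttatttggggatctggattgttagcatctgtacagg
Zfp281: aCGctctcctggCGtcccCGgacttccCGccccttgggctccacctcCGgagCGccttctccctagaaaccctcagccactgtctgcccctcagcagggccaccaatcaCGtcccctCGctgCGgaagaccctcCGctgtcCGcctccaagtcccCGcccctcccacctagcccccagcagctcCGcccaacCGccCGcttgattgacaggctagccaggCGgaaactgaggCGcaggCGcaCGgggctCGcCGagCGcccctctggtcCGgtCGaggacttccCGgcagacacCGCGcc
Over the 287 member windows the median was 15 CG dinucleotides and 55.3% G plus C, against 7 and 52.7% over all windows. The full set of windows covers 27025 genes and was not limited by level, as the members were. The shares here and below therefore do not set members against other expressed genes. Letters searched on both strands were TATAAA, in 4.88% of member windows and 13.6% of all windows, and TGACGTCA, the cAMP response element, in 3.83% and 1.79%. A 10-letter form of the NF-kB element was in 2 member windows, or 0.697%, against 0.411% of all windows. A 13-letter palindromic form of the glucocorticoid receptor element was in 0 of the 287 member windows and in 0.475% of all windows, which says only that these letters are not in these windows.

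Library totals ran from 18326206 to 27908164 counts, and the members took 0.339 to 0.674% of them. Levels below are CPM scaled by library size and TMM factor, and a gene is called where edgeR's quasi-likelihood test gave an adjusted p under 0.05 (Benjamini-Hochberg over the 14985 genes tested, all 283 members among them). The treatments were visible in their usual targets. Il1b, an LPS-induced cytokine, averaged 6551 CPM with LPS and 1.10 CPM in Control at 4 h, and Fkbp5, a glucocorticoid target, averaged 1480 CPM with dexamethasone and 52.4 CPM in Control. All 8 macrophage markers were detected in every group, with sums of 22263 to 24359 CPM with LPS at 4 h and 16727 to 18715 CPM in Control at 4 h. With LPS at 4 h 5 of the 8 were called higher and 2 lower. Sums of 7 neutrophil markers were 95 to 130 CPM with LPS and 34 to 49.2 CPM in Control at 4 h, with 4 of 6 tested markers called higher and the defining marker Ly6g at 0.0512 CPM or less in every group mean. Sums of 5 dendritic cell markers were 14.5 to 19.4 CPM with LPS and 3.22 to 5.02 CPM in Control at 4 h, with 3 of 5 called higher. Sums of 6 stromal and endothelial markers were 45.7 to 51.4 CPM with LPS and 2.86 to 3.74 CPM in Control at 4 h, with 3 of 4 tested called higher, among which Pdgfrb averaged 40.9 CPM with LPS, while Col1a1 stayed at 0.274 CPM or less in every group mean. Mast cell and basophil sums were at most 3.45 CPM, lymphocyte sums at most 2.5 CPM and erythroid sums at most 0.127 CPM in every library. The part of these cells in the results below was not tested, and in bulk RNA fewer cells of a type cannot be told apart from less RNA per cell.

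The first comparison asks what LPS did at 4 h. Most Zfp genes were lower: 190 of the 283 members, or 67.1%, were called lower and 37, or 13.1%, higher, against 38.8% lower and 34.2% higher among all genes tested. The median log2 fold change of the members was -0.74, and that of all genes tested was -0.07. Changes of at least 2-fold were called in 98 members downward and in 15 upward, against 21.7% and 17.6% of all genes tested. In the plot of called shares this comparison has the longest downward bar.

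**Figure D1:**
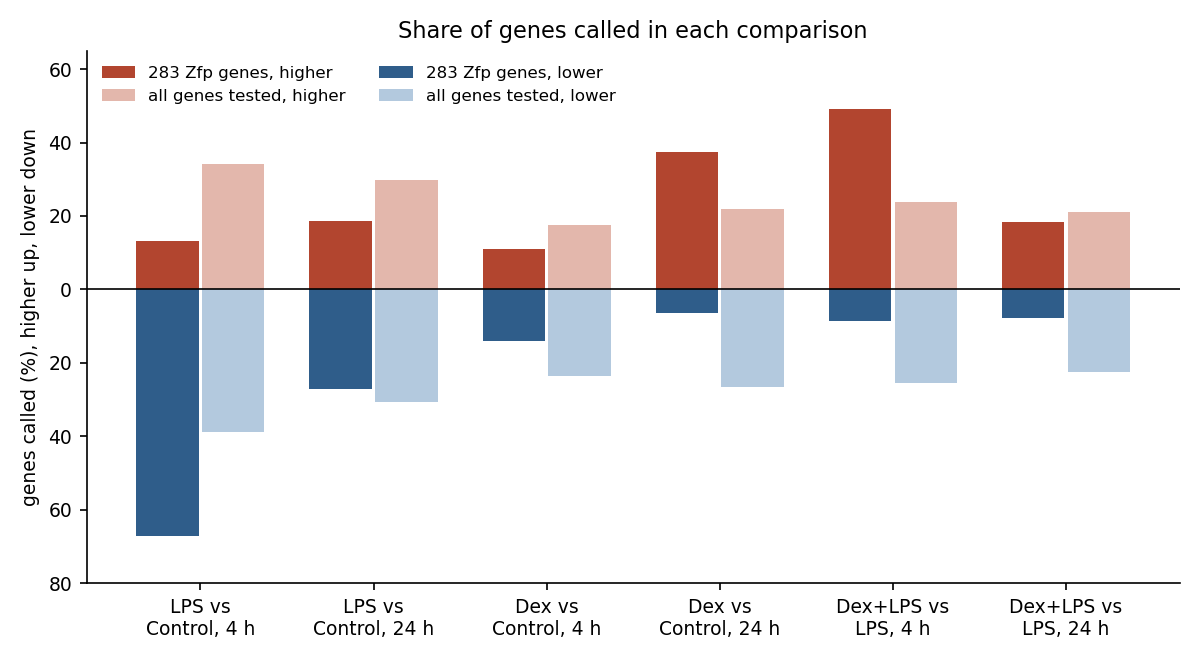
Share of genes called higher (above the line) and lower (below it) in percent, for the 283 Zfp genes (dark bars) and all 14985 genes tested (light bars) in 6 comparisons. The Zfp genes reach 67.1% lower in LPS against Control at 4 h and 49.1% higher in dexamethasone plus LPS against LPS at 4 h. By library size alone both shares are larger, and so are those of all genes tested.

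The size of this shift depends on how libraries are scaled. By library size alone, without TMM factors, the median of all genes moves by -0.77, and the members are then 259 lower and 16 higher with a median of -1.51. Of all 14985 genes tested, 9778 are then lower and 2434 higher. The distance between the member median and the median of all genes was -0.67 under both scalings. A change of scaling moves all genes of a comparison by nearly the same amount, so this distance could hardly differ. Scaled by library size alone the members summed to 3465 ± 120 CPM with LPS and 6367 ± 71 CPM in Control, while on the TMM scale they summed to 5021 ± 78.4 CPM with LPS and 5412 ± 84.7 CPM in Control (SD, n = 3 each).

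The deepest fall was in Zfp395, whose human counterpart was described as a factor binding the huntingtin gene's regulatory region. It had 0.261, 0.399 and 0.125 CPM with LPS and 53.2, 55.8 and 50.6 CPM in Control. That is 14 counts over the LPS libraries and 4016 over the Control libraries, a ratio of 0.00500 (95% counting interval 0.00273 to 0.00839, adjusted p = 9.9e-29). No LPS library came near a Control library. With dexamethasone plus LPS at 4 h it had 0.623, 0.363 and 0.0554 CPM, overlapping the LPS libraries.

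Zfp704 had 3.03, 1.6 and 1.87 CPM with LPS and 25.6, 22.3 and 26.1 CPM in Control (log2 fold change -3.49 ± 0.16 SE, adjusted p = 1.9e-20). Other genes overlap 16.6% of its exon bases, which makes its count uncertain. Zfp398, a KRAB gene on chromosome 6, had 1.15, 0.456 and 2.06 CPM with LPS and 11.6, 11.8 and 14.3 CPM in Control (-3.38 ± 0.20, adjusted p = 2.3e-17). The groups did not overlap for either gene. Further large falls were those of Zfp41 (-2.87), Zfp362 (-2.17), Zfp652 (-2.15), Zfp367 (-2.01) and Zfp369 (-1.98). Zfp652, a partner of the corepressor Cbfa2t3, had 13.7, 17 and 18.3 CPM with LPS and 73.6, 69.1 and 73.2 CPM in Control, and its exons overlap those of other genes in part, which makes its count uncertain.

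A minority of Zfp genes went up sharply. Zfp811, a KRAB gene with 13 fingers, had 22.6, 21.9 and 25.1 CPM with LPS, and was almost silent in Control at 4 h with 0.0936, 0.0922 and 0 CPM. Over the 3 libraries that is 1217 counts with LPS and 5 in Control, a ratio of 349 (95% counting interval 149 to 1076). It lies in a chromosome 17 cluster of 13 members, 10 of which were called lower, so that its direction is opposite to that of most of its neighbours. Zfp800 had 222, 236 and 224 CPM with LPS and 29.4, 23 and 26.2 CPM in Control (3.11 ± 0.09, adjusted p = 6.4e-25). Zfp281, a transcription factor known from the control of pluripotency in mouse embryonic stem cells, had 213, 216 and 199 CPM with LPS and 37.2, 32.7 and 38.8 CPM in Control (2.53 ± 0.06, adjusted p = 6.4e-29). In each of these genes every LPS library was several times above every Control library.

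Zfp558, also a KRAB gene, had 12.1, 7.3 and 9.5 CPM with LPS and averaged 0.865 ± 0.24 CPM in Control (SD, n = 3). Its log2 fold change was 3.46 ± 0.25 (adjusted p = 4.3e-15). Zfp821 (2.28), Zfp719 (2.17), Zfp658 (1.87), Zfp319 (1.79), Zfp513 (1.77), Zfp429 (1.46), Zfp263 (1.41) and Zfp131 (1.18) complete the 12 largest rises among members of at least 5 CPM over the compared groups. Zfp429 shares 25.3% of its 50-base words with other genes, which makes its count uncertain. Zfp263 was the highest member per length over the series at 31.5 CPM per kilobase of exon, and had 54.0 CPM per kilobase with LPS and 20.3 in Control at 4 h. All 12 were also higher when scaled by library size alone, by 0.41 to 7.58 on the log2 scale.

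**Figure D2:**
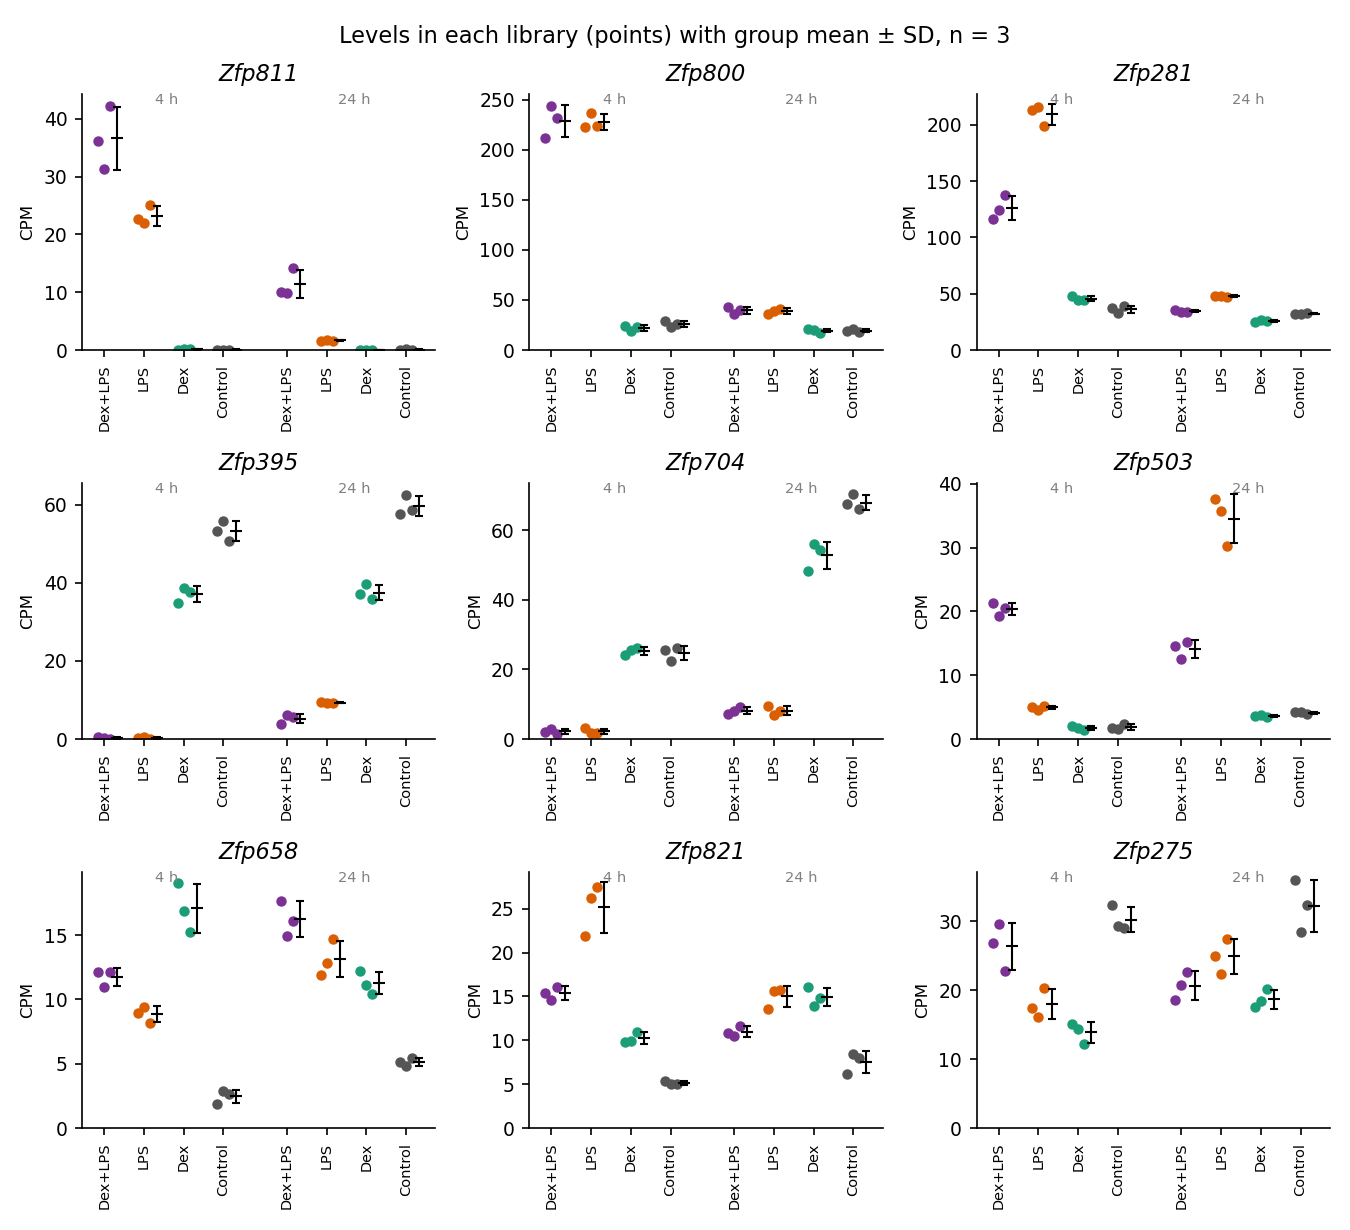
Level in CPM (linear axis from 0) of 9 Zfp genes in each library (points) with the group mean ± SD (bars, n = 3), for dexamethasone plus LPS, LPS, dexamethasone and Control at 4 h and at 24 h. Zfp811, Zfp800 and Zfp281 are highest in the LPS-treated groups of 4 h, Zfp395 and Zfp704 are lowest there, and Zfp503 has opposite orders of dexamethasone plus LPS and LPS at the 2 times.

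The medians of the KRAB genes and the other Zfp genes lay apart. Of the 168 KRAB genes, 122 were called lower and 17 higher, with a median log2 fold change of -0.89. Of the 112 genes without the box, 65 were called lower and 20 higher, with a median of -0.35. The classes also differ in level, taken as the mean CPM by library size over all 24 libraries. That mean includes the LPS libraries compared here, so a fall with LPS itself lowers the level by which members were divided. Among members below the median level the medians were -1.05 for 112 KRAB genes and -0.94 for 26 others, and among members above it -0.55 for 56 KRAB genes and -0.25 for 86 others. The difference between the classes was described and not tested.

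**Figure D3:**
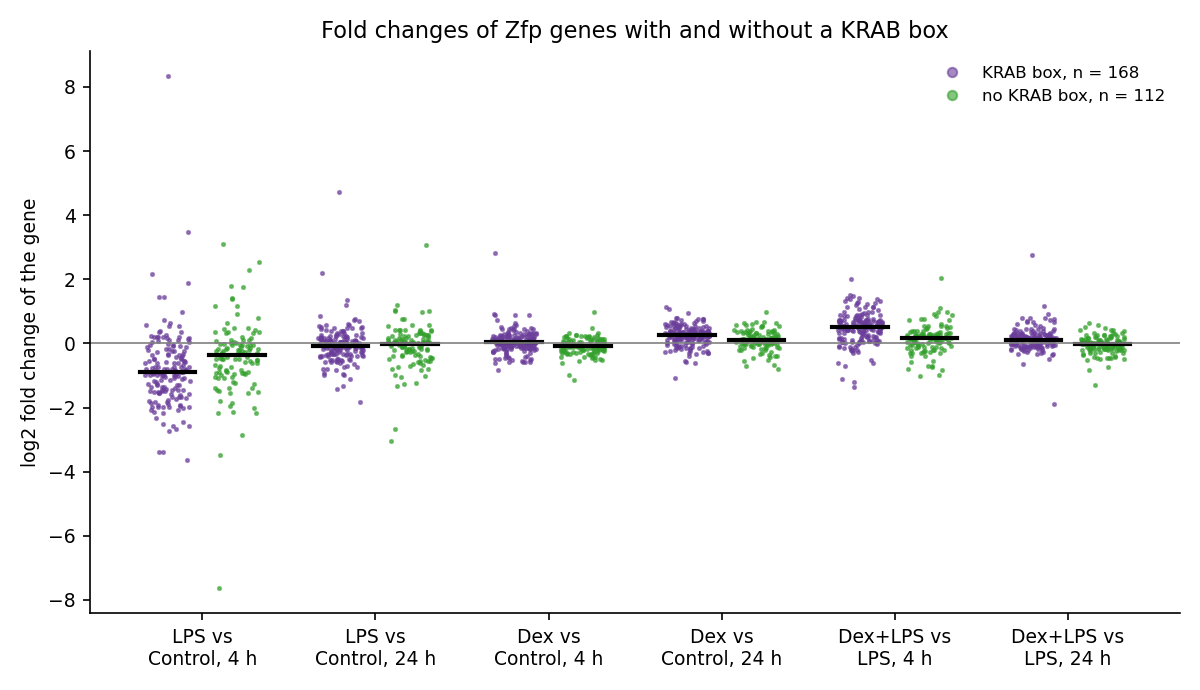
Log2 fold change of each Zfp gene (points) in 6 comparisons, for 168 genes with a KRAB box (left) and 112 without (right), with the class median as a black bar. The KRAB median is -0.89 in LPS against Control at 4 h and 0.50 in dexamethasone plus LPS against LPS at 4 h, against -0.35 and 0.16 in the genes without the box.

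The fall at 4 h ran through most clusters. In the cluster of 20 KRAB genes on chromosome 13 (chr13:67186660-67975121), 16 were called lower and 2 higher, with a median of -0.77 and a range of -3.39 to 1.46. In the cluster of 21 KRAB genes on chromosome 17 (chr17:21229165-23783212), 12 were lower and 3 higher, with a median of -0.56. The 8 members of a chromosome 7 cluster (chr7:23781349-24926932) had 7 lower and 0 higher, with a median of -1.31. All 16 clusters had a median below 0, the shallowest at -0.22 in 5 KRAB genes of chromosome 4. Positions are those of the deposited table, taken as GRCm39.

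**Figure D4:**
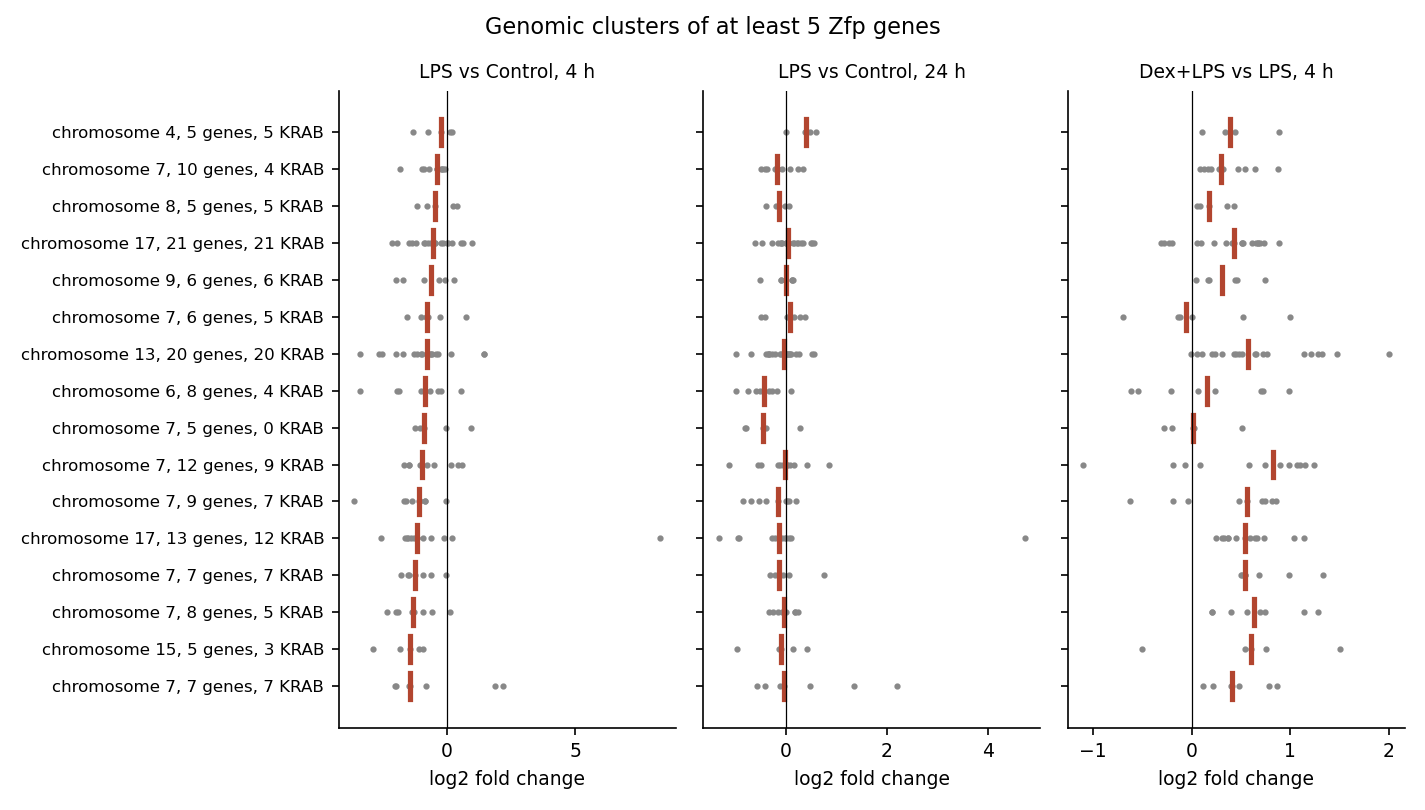
Log2 fold change of the members (grey points) of the 16 clusters of at least 5 Zfp genes, with the cluster median (red), in 3 comparisons. Cluster medians lie between -1.45 and -0.22 in LPS against Control at 4 h, spread around 0 at 24 h, and are above 0 in 15 of the 16 clusters in dexamethasone plus LPS against LPS at 4 h.

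One chromosome 7 cluster (chr7:41282627-43242659) held both directions. Its members Zfp141, Zfp715, Zfp788, Zfp975 and Zfp976 were called lower with LPS at 4 h, with log2 fold changes between -2.03 and -0.83. Zfp658 and Zfp719, whose promoters are shown above and whose gene bodies are 4148 bases apart, were called higher. Zfp719 had 24.7, 24.3 and 24.7 CPM with LPS and 5.55, 5.53 and 5.25 CPM in Control, and Zfp658 had 8.94, 9.41 and 8.18 CPM with LPS and 1.87, 2.86 and 2.67 CPM in Control. The groups did not overlap for either.

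Among 23 members with a described function, 12, or 52.2%, were called lower and 3, or 13%, higher with LPS at 4 h, against 38.8% and 34.2% of all genes tested. The 3 were Zfp281, Zfp207 and Zfp143. Zfp207, whose human counterpart binds Bub3 and spindle microtubules, had 267, 271 and 285 CPM with LPS and 165, 151 and 156 CPM in Control (0.80 ± 0.05, adjusted p = 7.1e-17), a change of 0.03 by library size alone. Zfp143, a factor of promoters and chromatin loops, had a log2 fold change of 0.47 (adjusted p = 5.2e-06), which turns to -0.30 by library size alone. Zfp809, which silences murine leukaemia virus, averaged 8.99 ± 1.28 CPM with LPS and 18 ± 0.73 CPM in Control (-0.99 ± 0.11, adjusted p = 1.9e-10). Zfp445, which maintains imprints, averaged 67.3 ± 3.25 CPM with LPS and 80.1 ± 1.08 CPM in Control (-0.25 ± 0.06, adjusted p = 0.00032).

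The partners of the KRAB box are given from a list of 26 genes. With LPS at 4 h, 15, or 57.7%, were called lower and 9, or 34.6%, higher, against 38.8% and 34.2% of all genes tested. Trim28 averaged 163 CPM with LPS and 231 CPM in Control (log2 fold change -0.51), and its methyltransferase Setdb1 31.8 CPM with LPS and 72.2 CPM in Control (-1.19). The heterochromatin proteins Cbx3 (-1.77) and Cbx5 (-1.93) and the maintenance methyltransferase Dnmt1 (-3.23) were lower too. The histone chaperone Daxx averaged 1232 CPM with LPS and 50.2 CPM in Control (4.62). Resf1, a partner of Setdb1, rose by 2.41 and Morc3 by 1.53.

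At 24 h the difference between LPS and Control was far smaller in the Zfp genes. Of the 283 members 77, or 27.2%, were called lower and 53, or 18.7%, higher, against 30.6% and 29.7% of all genes tested, and the median was -0.05. Macrophage marker sums were 48423 to 52306 CPM with LPS and 22004 to 24197 CPM in Control at 24 h, with 6 of 8 markers called higher and 1 lower. Stromal and endothelial sums were 8.98 to 10.4 CPM with LPS and 1.61 to 1.88 CPM in Control, with 3 of 4 tested markers called higher. Neutrophil sums were 8.9 to 10.6 CPM with LPS and 2.37 to 2.85 CPM in Control, and most of the sum with LPS was S100a8. Of 6 tested neutrophil markers 2 were called higher and 1 lower, with a median log2 fold change of -0.51. The part of these markers in the Zfp results was not tested. By library size alone, which moves the median of all genes by -0.20, the member counts were 125 lower and 29 higher. Of all 14985 genes tested, 6277 were then lower and 3079 higher. Of the 190 members lower at 4 h, 126 were not lower at 24 h, and 13 of these were higher at 24 h. A further 64 were lower at both times, and 22 were higher at both. These joint counts were not made over all genes tested, so they describe the members only.

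The change between the times was tested itself. The LPS effect at 24 h minus that at 4 h was called above 0 in 160 members, or 56.5%, and below 0 in 31, or 11%, against 30.8% and 30.5% of all genes tested, with a median difference of 0.56. The KRAB genes had 104 above and 16 below with a median of 0.71, and the others 55 above and 15 below with a median of 0.32. Scaling by library size alone gave 241 members above and 10 below, with 7691 above and 2573 below among all 14985 genes tested. Zfp395 had 9.45, 9.21 and 9.28 CPM with LPS and 57.5, 62.5 and 58.8 CPM in Control at 24 h, a log2 fold change of -2.68 against -7.61 at 4 h (difference 4.94 ± 0.29, adjusted p = 2.0e-17). The gene was thus still below Control in every library at 24 h. Zfp398 had 8.16, 7.08 and 7.64 CPM with LPS and 14.3, 11.8 and 12.3 CPM in Control at 24 h (difference 2.63 ± 0.26, adjusted p = 4.7e-11). Zfp800 had 36, 39.4 and 41.3 CPM with LPS and 19.1, 20.9 and 17.9 CPM in Control, a log2 fold change of 1.0 where it had 3.11 at 4 h (difference -2.10 ± 0.13, adjusted p = 1.3e-15).

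The largest rise at 24 h among members of at least 5 CPM was in Zfp503, a zinc finger corepressor of the Nlz family. It had 37.6, 35.8 and 30.2 CPM with LPS and 4.21, 4.26 and 3.94 CPM in Control (3.06 ± 0.12, adjusted p = 4.6e-22). Its paralogue Zfp703 went the other way, with 27.1, 29.2 and 22.3 CPM with LPS and 50.1, 55.6 and 54.1 CPM in Control (-1.02 ± 0.08, adjusted p = 2.5e-13). The libraries of LPS and Control did not overlap in either gene. Zfp704 had 9.49, 6.92 and 8.04 CPM with LPS and 67.5, 70.3 and 66 CPM in Control, the deepest fall at 24 h among members of at least 5 CPM (-3.05 ± 0.12, adjusted p = 5.8e-22). Zfp719 (2.21), Zfp658 (1.36), Zfp654 (1.19), Zfp292 (1.04) and Zfp131 (1.0) were further rises, and Zfp90 (-1.42), Zfp367 (-1.34), Zfp101 (-1.33), Zfp608 (-1.26) and Zfp362 (-1.24) further falls.

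Of the 23 members with a described function 9, or 39.1%, were higher and 4, or 17.4%, lower with LPS at 24 h, against 29.7% and 30.6% of all genes tested. Zfp445 averaged 110 ± 5.91 CPM with LPS and 67.4 ± 1.29 CPM in Control (0.71 ± 0.06, adjusted p = 4.7e-13), and was lower at 4 h, as given above. Zfp568, a KRAB protein that represses a placental Igf2 transcript in mice, had 19, 18.2 and 20.7 CPM with LPS and 10.8, 10.7 and 10.5 CPM in Control (0.86 ± 0.11, adjusted p = 7.1e-09). Zfp622, whose yeast relative acts in ribosome assembly, was lower (-0.58 ± 0.07, adjusted p = 1.9e-09). Of the 26 partners of the KRAB box, 10 were higher and 10 lower, or 38.5% each way, against 29.7% higher and 30.6% lower among all genes tested.

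Dexamethasone alone changed fewer Zfp genes at 4 h. Of the 283 members 40, or 14.1%, were called lower and 31, or 11%, higher, against 23.7% and 17.6% of all genes tested, with a median of -0.00795, which is 0.00475 with DESeq2's size factors. Dendritic cell marker sums were 15.6 to 17 CPM with dexamethasone and 3.22 to 5.02 CPM in Control. Most of the sum with dexamethasone was Flt3, which averaged 15.1 CPM with dexamethasone and 1.17 CPM in Control. Of the 5 dendritic cell markers 1 was called higher and 2 lower. The part of these markers in the Zfp results was not tested. The gene that stood out was Zfp658, with 19.1, 16.9 and 15.3 CPM with dexamethasone and 1.87, 2.86 and 2.67 CPM in Control (2.82 ± 0.14, adjusted p = 8.4e-19), and the only member called with a rise of at least 2-fold, against 4.98% of all genes tested. Zfp821 had 9.76, 9.95 and 11 CPM with dexamethasone and 5.4, 5.07 and 5.01 CPM in Control (0.98 ± 0.12, adjusted p = 2.7e-08). Zfp719, the neighbour of Zfp658, had 11.1, 9.82 and 9.22 CPM with dexamethasone and 5.55, 5.53 and 5.25 CPM in Control (0.88 ± 0.12, adjusted p = 3.0e-07). None of the other 5 members of that cluster was called in either direction at 4 h. The dexamethasone libraries lay above all Control libraries in each of these 3 genes.

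Zfp275, an X-linked gene, was the largest fall among members of at least 5 CPM, with 15.2, 14.3 and 12.2 CPM with dexamethasone and 32.4, 29.3 and 29.1 CPM in Control (-1.13 ± 0.11, adjusted p = 5.0e-11). Zfp385a, a p53 cofactor, had 28.2, 29.6 and 30.2 CPM with dexamethasone and 53.2, 65.1 and 56.4 CPM in Control (-0.98 ± 0.08, adjusted p = 4.9e-13). Zfp710 had 151, 166 and 174 CPM with dexamethasone and 246, 246 and 252 CPM in Control (-0.60 ± 0.07, adjusted p = 2.0e-08). None of the 3 genes had groups that overlapped. The only other fall of at least 2-fold was in Zfp469, given below, where all genes tested had 5.61%.

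At 24 h dexamethasone alone was followed by a broad, shallow rise. Of the 283 members 106, or 37.5%, were called higher and 18, or 6.36%, lower, against 21.9% and 26.5% of all genes tested, and the median was 0.20 with 0.00 over all genes. Called changes of at least 2-fold were 2 rises and 2 falls, against 4.78% and 9.18% of all genes tested. Among KRAB genes 73 were higher and 4 lower with a median of 0.27, and among the others 33 were higher and 13 lower with a median of 0.11. Dendritic cell marker sums were 9.9 to 10.1 CPM with dexamethasone and 1.64 to 2.06 CPM in Control at 24 h, of which Flt3 made up 9.06 CPM with dexamethasone and 0.129 CPM in Control on average. Of the 5 dendritic cell markers 1 was called higher and 1 lower. Macrophage marker sums were 29692 to 33894 CPM with dexamethasone and 22004 to 24197 CPM in Control, with 3 of 8 markers called higher and 4 lower. Their part in the Zfp results was not tested. Of the 20 genes of the chromosome 13 cluster 12 were higher and 0 lower, with log2 fold changes of 0.11 to 0.76.

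Zfp658 again led, with 12.2, 11.2 and 10.4 CPM with dexamethasone and 5.16, 4.81 and 5.42 CPM in Control (1.14 ± 0.13, adjusted p = 2.6e-09). Zfp1 had 11.1, 11.3 and 10.6 CPM with dexamethasone and 4.93, 5.39 and 5.37 CPM in Control (1.07 ± 0.16, adjusted p = 7.0e-07). Zfp821 (0.99), Zfp113 (0.78), Zfp169 (0.74), Zfp40 (0.71) and Zfp652 (0.68) followed. Zfp275 (-0.79), Zfp367 (-0.70), Zfp395 (-0.67) and Zfp608 (-0.54) were among the largest falls. Over the 2 times 21 members were higher and 11 lower with dexamethasone at both, a count that was not made over all genes tested. Zfp609, which works with Integrator and cohesin, rose by 0.59, Zfp809 by 0.54 and Zfp568 by 0.53. Of the 26 partners of the KRAB box 11 were lower and 5 higher at 24 h, and 15 lower and 1 higher at 4 h, where all genes tested had 26.5% lower and 21.9% higher at 24 h and 23.7% lower and 17.6% higher at 4 h. As shares of the 26 these are 42.3% lower and 19.2% higher at 24 h, and 57.7% lower and 3.85% higher at 4 h. Setdb1 was higher at both times (0.45 at 4 h and 0.43 at 24 h), while Trim28 and Dnmt1 had lower means at both. Trim28 averaged 175 CPM with dexamethasone and 231 CPM in Control at 4 h, and 98.2 and 118 CPM at 24 h. Dnmt1 averaged 134 CPM with dexamethasone and 262 CPM in Control at 4 h, and 66.4 and 124 CPM at 24 h.

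Dexamethasone given with LPS, set against LPS alone, raised many Zfp genes at 4 h. Of the 283 members 139, or 49.1%, were called higher and 24, or 8.48%, lower, against 23.9% and 25.4% of all genes tested, with a median of 0.34 and 0.00 over all genes. By library size alone, which moves the median of all genes by 0.21, 201 members were higher and 12 lower. Of all 14985 genes tested, 5974 were then higher and 2364 lower. Among KRAB genes 97 were higher and 7 lower with a median of 0.50, and among the others 40 were higher and 17 lower with a median of 0.16. In members above the median level the medians were 0.46 for KRAB genes and 0.13 for the others. The chromosome 13 cluster had 14 higher and 0 lower of 20, and the chromosome 7 cluster at chr7:29467977-29869175 had 8 higher and 1 lower of 12 with a median of 0.82. This comparison and that of LPS with Control share the LPS libraries. Stromal and endothelial marker sums were 92.7 to 105 CPM with dexamethasone plus LPS and 45.7 to 51.4 CPM with LPS, and neutrophil marker sums 65.1 to 98.3 CPM with dexamethasone plus LPS and 95 to 130 CPM with LPS. Most of the stromal and endothelial sum was Pdgfrb, at a mean of 94.9 CPM with dexamethasone plus LPS and 40.9 CPM with LPS. Of 4 tested stromal and endothelial markers 1 was called higher and 2 lower, and of 6 tested neutrophil markers 0 were higher and 2 lower. The part of either sum in the Zfp results was not tested.

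Zfp503 was the largest rise, with 21.3, 19.4 and 20.5 CPM with dexamethasone plus LPS and 5.07, 4.62 and 5.18 CPM with LPS (2.04 ± 0.13, adjusted p = 8.2e-16). Zfp568 had 42.6, 38.8 and 46.9 CPM with dexamethasone plus LPS and 22.6, 18.7 and 16.4 CPM with LPS (1.15 ± 0.10, adjusted p = 2.3e-12). Zfp131, a BTB zinc finger protein, had 117, 121 and 116 CPM with dexamethasone plus LPS and 64.5, 57.3 and 69.5 CPM with LPS (0.89 ± 0.07, adjusted p = 1.4e-13). The groups were apart in all 3 genes. Zfp131 was also higher with LPS than in Control, so that dexamethasone added to an LPS rise there. For Zfp568 LPS and Control were not told apart by the test at 4 h (0.14 ± 0.10, adjusted p = 0.21), and by library size alone the gene was lower with LPS (-0.63).

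Other rises were found in genes that LPS had lowered. Zfp369 had 10.8, 12.8 and 7.58 CPM with dexamethasone plus LPS and 4.34, 5.08 and 3.56 CPM with LPS, where Control libraries of 4 h had 17, 17.7 and 16.6 CPM. Zfp958 had 6.75, 8.83 and 6.26 CPM with dexamethasone plus LPS and 2.72, 1.54 and 4 CPM with LPS, where Control had 7.49, 7.56 and 5.8 CPM. The libraries with dexamethasone plus LPS were thus below all Control libraries in Zfp369, and overlapped them in Zfp958. Zfp809 averaged 15.2 ± 0.59 CPM with dexamethasone plus LPS and 8.99 ± 1.28 CPM with LPS (0.75 ± 0.11, adjusted p = 5.0e-07), and Zfp445 102 ± 9.12 CPM with dexamethasone plus LPS and 67.3 ± 3.25 CPM with LPS (0.59 ± 0.06, adjusted p = 1.6e-10). Of the 23 members with a described function 14, or 60.9%, were higher and 1, or 4.35%, lower, against 23.9% and 25.4% of all genes tested. Of the 14, 6 lost the call under at least 1 alternative other than library size alone, 5 of them (Zfp143, Zfp148, Zfp410, Zfp451 and Zfp746) only when a library was left out, and Zfp318 also with DESeq2's Wald test (adjusted p = 0.074).

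The one lower was Zfp281, with 116, 124 and 138 CPM with dexamethasone plus LPS and 213, 216 and 199 CPM with LPS (-0.73 ± 0.06, adjusted p = 6.7e-13). Zfp558 had 3.69, 3.93 and 3.54 CPM with dexamethasone plus LPS and 12.1, 7.3 and 9.5 CPM with LPS (-1.37 ± 0.21, adjusted p = 1.3e-06). Zfp319 had 50.8, 52.8 and 52.6 CPM with dexamethasone plus LPS and 94.4, 99 and 86 CPM with LPS (-0.84 ± 0.07, adjusted p = 5.1e-13). These 3 genes had been raised by LPS, and with dexamethasone they stayed between LPS and Control. Zfp90 (-1.22), Zfp382 (-1.10), Zfp703 (-1.01) and Zfp385a (-1.0) fell as well. Zfp811, in contrast, had 36.2, 31.3 and 42.2 CPM with dexamethasone plus LPS and 22.6, 21.9 and 25.1 CPM with LPS (0.66 ± 0.14, adjusted p = 9.5e-05). Zfp800 was not called, with 212, 243 and 232 CPM with dexamethasone plus LPS and 222, 236 and 224 CPM with LPS (0.01 ± 0.08, adjusted p = 0.95), and its libraries overlapped.

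Among the 26 partners of the KRAB box 11, or 42.3%, were higher and 7, or 26.9%, lower in this comparison, against 23.9% and 25.4% of all genes tested. Setdb1 averaged 53.4 CPM with dexamethasone plus LPS and 31.8 CPM with LPS (0.75), Trim24 rose by 0.82 and Mphosph8, of the HUSH complex, by 0.90. Daxx averaged 515 CPM with dexamethasone plus LPS and 1232 CPM with LPS (-1.26), and Trim28 140 CPM with dexamethasone plus LPS and 163 CPM with LPS (-0.22).

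At 24 h dexamethasone plus LPS differed from LPS in fewer Zfp genes. Neutrophil marker sums were 17.3 to 23.2 CPM with dexamethasone plus LPS and 8.9 to 10.6 CPM with LPS. Most of either sum was S100a8, and of 6 tested neutrophil markers 1 was called higher and 2 lower. Macrophage marker sums were 42182 to 43170 CPM with dexamethasone plus LPS and 48423 to 52306 CPM with LPS. Of the 8 macrophage markers 2 were called higher and 5 lower. The part of these markers in the Zfp results was not tested. Of the 283 members 52, or 18.4%, were higher and 22, or 7.77%, lower, against 21% and 22.6% of all genes tested, with a median of 0.06. A rise at both times was called in 33 members and a fall at both in 10, without a matching count over all genes tested. The difference of the dexamethasone effect under LPS, 24 h minus 4 h, was below 0 in 78 members, or 27.6%, and above 0 in 17, or 6.01%, against 19.8% and 19% of all genes tested, with a median of -0.27. By library size alone 131 members were below and 10 above, with 4808 below and 1937 above among all 14985 genes tested.

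Zfp811 was the largest rise at 24 h, with 10.1, 9.83 and 14.2 CPM with dexamethasone plus LPS and 1.6, 1.77 and 1.64 CPM with LPS (2.76 ± 0.20, adjusted p = 1.6e-14). Both groups were below their own levels of 4 h given above, LPS alone by the larger factor. Without LPS the gene was near 0 in every library of both times, with 9 counts over the dexamethasone libraries and 5 over the Control libraries at 4 h, and 4 and 4 at 24 h. Zfp961 had 10.4, 11.6 and 11.1 CPM with dexamethasone plus LPS and 5.78, 6.4 and 5.36 CPM with LPS (0.92 ± 0.13, adjusted p = 3.7e-07). Zfp398 (0.73) and Zfp362 (0.58) were among further rises in genes that were lower with LPS than in Control.

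Zfp503 fell at 24 h, with 14.6, 12.6 and 15.3 CPM with dexamethasone plus LPS and 37.6, 35.8 and 30.2 CPM with LPS (-1.29 ± 0.11, adjusted p = 2.2e-12). Its direction under LPS was thus opposite at 4 h and 24 h, and the difference between the times was -3.33 ± 0.17 (adjusted p = 5.9e-18). With dexamethasone alone it was not called at either time (-0.13 at 4 h and -0.19 at 24 h, adjusted p = 0.65 and 0.31). Zfp395 had 3.98, 6.1 and 5.66 CPM with dexamethasone plus LPS and 9.45, 9.21 and 9.28 CPM with LPS (-0.83 ± 0.14, adjusted p = 4.1e-06), so its level was furthest from Control with both agents. Zfp654 (-0.74), Zfp710 (-0.51), Zfp281 (-0.47) and Zfp292 (-0.45) also fell.

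Whether dexamethasone acted on the Zfp genes to a different degree with and without LPS was tested as the difference of its effects. At 4 h this difference was above 0 in 109 members, or 38.5%, and below 0 in 20, or 7.07%, against 20.8% and 17.9% of all genes tested, with a median of 0.36. By library size alone 170 members were above 0 and 7 below, with 5279 above and 1566 below among all 14985 genes tested. At 24 h it was above 0 in 15 members, or 5.30%, and below 0 in 45, or 15.9%, against 20.5% and 17.8% of all genes tested, with a median of -0.12. Zfp275 had 26.8, 29.6 and 22.8 CPM with dexamethasone plus LPS and 17.4, 16.2 and 20.4 CPM with LPS at 4 h, a log2 fold change of 0.55, where dexamethasone alone gave a fall (difference 1.68 ± 0.15, adjusted p = 3.4e-11). Zfp821 had 15.4, 14.6 and 16.1 CPM with dexamethasone plus LPS and 21.8, 26.2 and 27.4 CPM with LPS at 4 h, a log2 fold change of -0.71, where dexamethasone alone gave a rise (difference -1.69 ± 0.16, adjusted p = 1.2e-10). The order of the groups in these genes was therefore opposite with and without LPS, without overlap between the libraries compared.

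Untreated cells changed as well between the times. Neutrophil marker sums were 2.37 to 2.85 CPM in Control at 24 h and 34 to 49.2 CPM in Control at 4 h, with 6 of 6 tested markers called lower, and macrophage marker sums 22004 to 24197 CPM at 24 h and 16727 to 18715 CPM at 4 h, with 7 of 8 called higher. Their part in the Zfp results was not tested. Against Control at 4 h, Control at 24 h had 72 members lower, or 25.4%, and 35 higher, or 12.4%, against 30.4% and 30.6% of all genes tested, with a median of -0.09. Zfp704 had 67.5, 70.3 and 66 CPM in Control at 24 h and 25.6, 22.3 and 26.1 CPM in Control at 4 h (1.46 ± 0.10, adjusted p = 1.8e-14). Zfp467, known from the balance of fat and bone cell fates in mice, had 21, 23.9 and 21.5 CPM at 24 h and 9.02, 11.2 and 9.11 CPM at 4 h (1.18 ± 0.12, adjusted p = 2.4e-10). Zfp146 was the largest fall, with 33.3, 29.1 and 28.1 CPM at 24 h and 57.6, 56.2 and 54.7 CPM at 4 h (-0.90 ± 0.07, adjusted p = 8.2e-14). The libraries of the times were apart in each gene. Of the 23 members with a described function 15, or 65.2%, were lower and 0 higher.

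Zfp469, whose human counterpart is linked to collagen and to brittle corneas, was lower with each agent and was singled out after its values were seen, since its mean is under 5 CPM in these comparisons. At 4 h it had 0.366, 0.0571 and 0.125 CPM with LPS, 0.601, 0.595 and 0.211 CPM with dexamethasone and 4.87, 5.44 and 7.27 CPM in Control. LPS left 10 counts against 432 in Control, a ratio of 0.0332 (95% counting interval 0.0158 to 0.0616), and the log2 fold change with dexamethasone was -3.63 ± 0.34 (adjusted p = 2.7e-11). At 24 h it had 0.229, 0.312 and 0.198 CPM with LPS, 1.49, 1.43 and 1.93 CPM with dexamethasone and 8.33, 8.56 and 7.16 CPM in Control. Every treated library was thus below every Control library at both times.

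At the other end, 11 members were called in none of the 6 treatment comparisons, a count that was not made over all genes tested. They are Zfp11, Zfp189, Zfp341, Zfp408, Zfp560, Zfp574, Zfp655, Zfp668, Zfp689, Zfp947 and Zfp995. Per length, the 5 highest members over the series were Zfp263 at 31.5, Zfp710 at 25.9, Zfp207 at 25.3, Zfp385a at 22 and Zfp106 at 20.9 CPM per kilobase of exon. Zfp106, an RNA-binding protein needed by motor neurons in mice, had 300, 282 and 280 CPM with dexamethasone plus LPS, 269, 256 and 261 CPM with LPS, 258, 274 and 247 CPM with dexamethasone and 174, 200 and 165 CPM in Control at 24 h. Each treated group at 24 h was above all Control libraries in that gene.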

How the data were processed

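RNA-seq of 24 macrophage libraries (8 groups of 3) was measured as one deposited table of counts per gene. Per the file headers, the authors counted read pairs over exons by gene with featureCounts 2.0.0, without strand, on a GENCODE M29 annotation, and per the submitters' processing notes STAR was the aligner, with a version not given in the sources used here. The notes name GRCm38, while the table's positions were taken as GRCm39, the build of M29. The table's exon length column, as deposited, gave CPM per kilobase. Symbols came from an Ensembl gene table, which matched 52081 of 55357 genes, and unmatched genes held at most 0.457% of a library.

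The members and gene lists were chosen with earlier results of these data known. All genes were fitted once over the 24 libraries with edgeR 4.0.16 (R 4.3.3, limma 3.58.1): TMM factors, filterByExpr, a robust quasi-likelihood fit with a mean per group and 16 residual degrees of freedom, and two-sided tests adjusted by Benjamini-Hochberg over 14985 genes at a threshold of 0.05. Standard errors are the log2 fold change over the root of F. The test was tried on simulated counts. Counting intervals are exact, at 95%, and cover counting error only. KRAB boxes and fingers were found in proteins translated from GENCODE M21 transcripts.

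The genes named were the 23 members of a list of known functions, in each 2-group comparison the 12 largest rises and falls with a mean of at least 5 CPM and groups apart, the 2 largest differences each way in each interaction, the 5 highest per length and those beside the 2 CPM limit, of which the text gives a part. Zfp469 and 5 neighbours of Zfp658 were added after their values were seen. Alternatives were DESeq2 1.42.0, its size factors, library size alone, other filters, fits of only the groups compared, a replicate block and leaving out each library.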

Additional observations from a re-analysis of the deposited data

Results flagged for a closer look

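In 16 cases the effect of a treatment on a Zfp gene differed between times or between the presence and absence of LPS, by edgeR's test of the difference itself. They are the most extreme of each kind among members of at least 5 CPM, and each difference is on the log2 scale with its standard error.

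For LPS at 24 h minus 4 h, Zfp395 differed by 4.94 ± 0.29 (adjusted p = 2.0e-17) and Zfp398 by 2.63 ± 0.26 (adjusted p = 4.7e-11), both less lowered at 24 h. Zfp800 differed by -2.10 ± 0.13 (adjusted p = 1.3e-15), with a smaller rise at 24 h. Zfp811 differed by -3.60 ± 1.27 (adjusted p = 0.014), which rests on Control libraries with few counts: without Control replicate 2 of 24 h, which holds all 4 counts of its group, the difference was -0.18 (adjusted p = 0.63).

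For dexamethasone on top of LPS at 24 h minus 4 h, Zfp811 differed by 2.10 ± 0.24 (adjusted p = 6.2e-09), with a larger rise at 24 h. Zfp503 differed by -3.33 ± 0.17 (adjusted p = 5.9e-18), lower at 24 h and higher at 4 h. Zfp324 differed by 0.91 ± 0.17 (adjusted p = 3.4e-05), with log2 fold changes of 0.22 at 24 h and -0.69 at 4 h. Zfp958 differed by -1.44 ± 0.27 (adjusted p = 5.7e-05), with -0.03 at 24 h and 1.41 at 4 h.

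For dexamethasone with LPS minus without it at 4 h, Zfp503 differed by 2.17 ± 0.23 (adjusted p = 1.3e-09) and Zfp275 by 1.68 ± 0.15 (adjusted p = 3.4e-11). Zfp658 differed by -2.41 ± 0.19 (adjusted p = 1.0e-12), with a rise of 0.41 with LPS and of 2.82 without it, and Zfp821 by -1.69 ± 0.16 (adjusted p = 1.2e-10). At 24 h Zfp367 differed by 0.89 ± 0.14 (adjusted p = 1.7e-06), with 0.19 with LPS and -0.70 without it. Zfp27 differed by 0.74 ± 0.21 (adjusted p = 0.004), with 0.44 with LPS and -0.30 without it. Zfp821 differed by -1.44 ± 0.16 (adjusted p = 3.0e-09), with -0.45 and 0.99, and Zfp503 by -1.10 ± 0.19 (adjusted p = 8.1e-06), with -1.29 and -0.19.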

How the results depend on the processing

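Scaling moved the counts most. By library size alone, the members called higher with LPS were 16 at 4 h and 29 at 24 h, with 125 lower at 24 h. Dexamethasone plus LPS against LPS at 4 h then had 12 lower. The LPS effect at 24 h minus 4 h had 241 above 0 and 10 below, the dexamethasone effect under LPS over the same times 10 above and 131 below, and its difference with and without LPS at 4 h 170 above and 7 below. The counts over all genes tested moved in the same directions under this scaling, as given above. Fits of only the groups compared gave 13 lower with dexamethasone plus LPS against LPS at 4 h, and 72 below 0 for the difference with and without LPS at 24 h. The cause of the last 2 was not tested. By library size alone, which moves the median of all genes, 19 of the 37 members called higher with LPS at 4 h had a log2 fold change below 0, as had 2 of the 53 at 24 h, and none of those called lower at either time turned. Among the genes with a described function the value turned with LPS at 4 h in Zfp143 (-0.30), Zfp335 (-0.58), Zfp384 (-0.67), Zfp410 (-0.59), Zfp568 (-0.63), Zfp609 (-0.76), Zfp622 (-0.68) and Zfp830 (-0.66), with LPS at 24 h in Zfp148 (-0.17), Zfp451 (-0.18) and Zfp91 (-0.016), and with dexamethasone plus LPS at 4 h in Zfp207 (0.16). Of these, Zfp143 at 4 h and Zfp91 at 24 h had been called, and the others had not.

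Leaving out 1 library at a time, the members with LPS were 35 to 38 higher and 188 to 190 lower at 4 h, and 43 to 47 and 66 to 73 at 24 h. With dexamethasone they were 22 to 28 higher and 33 to 41 lower at 4 h, and 82 to 97 and 14 to 17 at 24 h. With dexamethasone plus LPS against LPS they were 122 to 134 and 18 to 26 at 4 h, and 39 to 45 and 18 to 22 at 24 h. Control at 24 h against 4 h had 26 to 32 higher and 58 to 70 lower. The differences had 152 to 164 above and 27 to 30 below for LPS between times, 13 to 20 and 69 to 82 for dexamethasone under LPS between times, 99 to 119 and 15 to 21 with and without LPS at 4 h, and 11 to 16 and 35 to 41 at 24 h.

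Libraries that share a replicate number did not deviate together (84 pairs, median correlation -0.006, from -0.155 to 0.113). With 3 libraries per group this cannot show whether they share a mouse, a culture or a batch. With a replicate block the LPS effect at 4 h gave 190 members lower and 36 higher, and no count moved by over 1.5 times.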
